A study of Homo sapiens with 6 samples.

Results

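Small nucleolar RNA (snoRNA) host transcripts were taken as 10 genes by symbol, GAS5, SNHG1, SNHG5, SNHG6, SNHG7, SNHG8, SNHG15, SNHG16, ZFAS1 and EPB41L4A-AS1, out of 22125 genes with a count in eIF4B iCLIP. Every position listed under one of these names was kept, which gave 1421 of 1179243 positions in DoHH-2 and 78 of 78474 in GM01953. Each position was placed in an exon of the host, on a small RNA inside an intron, or in intron sequence, using GENCODE release 44 and RefSeq. iCLIP, a cross-linking and immunoprecipitation method with single-nucleotide resolution, maps the nucleotide at which a UV cross-linked protein halted reverse transcription, so a count is a cDNA that ended beside a cross-link. DoHH-2, derived from a diffuse large B-cell lymphoma, and GM01953, a B-cell line from a donor without the disease, were cross-linked with UVC and immunoprecipitated with an antibody to eIF4B. The lines are not isogenic and neither was treated. The authors pooled 4 replicates of DoHH-2 and 2 of GM01953 into 1 table per line, so no SD and no test over samples can be given.

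eIF4B is a cofactor of the helicase eIF4A, which unwinds the 5′ end of mRNAs during translation initiation. In a snoRNA host gene the introns carry snoRNAs, which guide chemical modification of ribosomal RNA, while the spliced exons form a non-coding RNA. Many such hosts begin with a 5′ terminal oligopyrimidine (5′ TOP) tract, as ribosomal protein mRNAs do, and several are loaded with ribosomes and degraded by nonsense-mediated decay (NMD). Box C/D snoRNAs carry a C box and a D box and guide 2′-O-methylation, and box H/ACA snoRNAs guide pseudouridylation.

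All 10 hosts are annotated as lncRNA genes. On GRCh38 GAS5 spans chr1:173858559-173868882, SNHG1 chr11:62851978-62855953, SNHG5 chr6:85650491-85678932, SNHG7 chr9:136721366-136728184 and SNHG15 chr7:44983019-44986961, all on the minus strand, as is SNHG6. On the plus strand lie SNHG8 at chr4:118278703-118285316, SNHG16 at chr17:76557727-76670985, ZFAS1 at chr20:49278178-49299600 and EPB41L4A-AS1 at chr5:112160526-112164818. The canonical transcripts have from 3 exons, in SNHG6, SNHG8, SNHG15 and EPB41L4A-AS1, to 12 in GAS5, and GAS5 encloses the most snoRNAs, 11, followed by SNHG1 with 9.

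The first bases of several hosts and some of their highest cross-linked positions are shown first, since the results below refer to them. No sequence of SNHG6, which had the highest single positions of the hosts, is shown. RefSeq transcript starts could be matched for 8 hosts. The 6 below had a cDNA within 50 nt of that start in DoHH-2. They read 5′ to 3′ on the host strand of GRCh38, and capitals mark the longest pyrimidine run that begins within 5 nt of the start.
SNHG16 (chr17:76557764-76557793, plus strand): gcgTTCTTTTCgaggtcggccgcgtggctg
SNHG7 (chr9:136728155-136728184, minus strand): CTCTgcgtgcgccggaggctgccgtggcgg
SNHG8 (chr4:118278762-118278791, plus strand): cacaTTCgggaagcgtcgggattaggtgaa
ZFAS1 (chr20:49278642-49278671, plus strand): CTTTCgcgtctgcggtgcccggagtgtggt
SNHG5 (chr6:85678704-85678733, minus strand): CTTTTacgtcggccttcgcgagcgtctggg
SNHG1 (chr11:62855856-62855885, minus strand): ctcaTTTTTCTactgctcgtggtaagtggc

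The snoRNA positions with at least 8 counts in DoHH-2 lay in SNHG1, ZFAS1 and GAS5. In these windows of the reference, and in the exonic windows that follow them, the cross-linked base is in capitals and T stands for U in the RNA.
SNORD26 of SNHG1 (chr11:62855291-62855315, minus strand), 12 counts: agaaaacagaaaAttctgagtagca
SNORD28 of SNHG1 (chr11:62854657-62854681, minus strand), 11 counts: attgataagctgAtgttctgtgagg
SNORD12 of ZFAS1 (chr20:49280698-49280722, plus strand), 12 counts: gatacagcttctTtccccatcagat
SNORD12C of ZFAS1 (chr20:49278952-49278976, plus strand), 9 counts: gatgacttcactTttttccccatca
SNORD76 of GAS5 (chr1:173866687-173866711, minus strand), 8 counts: acaatgatgacaGtttatttgctac
GAS5 exon 7 (chr1:173865519-173865543, minus strand), 18 counts: tggtaacgttttTatccatggatga
ZFAS1 exon 2 (chr20:49279101-49279125, plus strand), 8 counts: caggttagagcaGccagcgggtaca
ZFAS1 exon 2 (chr20:49279155-49279179, plus strand), 5 counts in GM01953: tggacctccaagGaagccacgtgca

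In DoHH-2 2061 of 2033156 counts were listed under the 10 hosts, and in GM01953 125 of 167197. A single cDNA was seen at 79.4% of host positions in DoHH-2 and at 64.1% in GM01953. Of the host counts, 41.3% in DoHH-2 and 40.0% in GM01953 lay at binding sites, here positions with a false discovery rate (FDR) below 0.05 in the authors' tables. The B-cell markers MS4A1, CD79A, CD79B, PAX5 and CD74 all had exonic counts in both lines, and 6 of 6 T-cell and myeloid markers had none in either. Values are given as counts per 1000000 counts of the table (CPM), with 95% intervals that cover counting error only and not the spread between replicates. Counts were not divided by RNA abundance, so binding by eIF4B and the amount of each RNA cannot be told apart.

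Exons of the 10 hosts held 1647 counts in DoHH-2, or 810 CPM (95% interval 772–850), and 82 in GM01953, or 490 CPM (395–609). The exonic share was 1.65 times as high in DoHH-2 (1.32–2.06). With each host left out in turn, this ratio lay between 1.57 without GAS5 and 1.74 without EPB41L4A-AS1. The highest single positions weighed more in GM01953, and without the highest exonic position of each host the ratio was 2.37.

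SNHG1, which encloses a series of box C/D snoRNAs, had the most exonic counts of the hosts, with 350 in DoHH-2 (172 CPM, 155–191) and 18 in GM01953 (108 CPM, 68.1–170). Its DoHH-2 count ranked 4 of 1895 lncRNA genes with an exonic count, and its GM01953 count ranked 15 of 550. SNHG6, host of SNORD87, followed with 301 counts in DoHH-2 (148 CPM, 132–166) and 13 in GM01953 (77.8 CPM, 45.4–133). GAS5, a host whose spliced transcript is a known growth-arrest RNA and NMD target, had 235 counts in DoHH-2 (116 CPM, 102–131) and 8 in GM01953 (47.8 CPM, 24.2–94.4). The intervals of the lines did not overlap for GAS5 and overlapped for SNHG1 and, barely, SNHG6.

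SNHG16, host of SNORD1A, SNORD1B and SNORD1C, had 222 counts in DoHH-2 (109 CPM, 95.7–125) and 10 in GM01953 (59.8 CPM, 32.5–110). Only 139 of its 222 DoHH-2 counts and 4 of its 10 GM01953 counts lay in 31-nt words that occur once in the genome, so reads of a near-identical copy cannot be told apart there. Over all hosts, 94.0% of the listed counts in DoHH-2 and 95.2% in GM01953 lay in such words. ZFAS1, host of the SNORD12 family, had 153 exonic counts in DoHH-2 (75.3 CPM, 64.2–88.2) and 8 in GM01953 (47.8 CPM, 24.2–94.4). SNHG8, host of the box H/ACA RNA SNORA24, had 124 (61.0 CPM, 51.2–72.7) and 8 (47.8 CPM). For SNHG16, ZFAS1 and SNHG8 the point values were higher in DoHH-2 and the intervals overlapped.

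The other 4 hosts had fewer than 60 exonic CPM in both lines. SNHG7, host of SNORA17A and SNORA17B, had 112 exonic counts in DoHH-2 (55.1 CPM, 45.8–66.3) and 2 in GM01953 (11.96 CPM, 3.28–43.6). SNHG15, host of SNORA9, had 65 (32.0 CPM) and 7 (41.9 CPM). SNHG5, host of SNORD50A and SNORD50B, had 50 (24.6 CPM) and 2 (11.96 CPM), and EPB41L4A-AS1, host of SNORA13, had 35 (17.2 CPM, 12.4–23.9) and 6 (35.9 CPM, 16.4–78.3). SNHG15 and EPB41L4A-AS1 were the hosts with a lower point value in DoHH-2, with intervals that overlapped between the lines, whereas those of SNHG7 did not overlap.

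**Figure D1:**
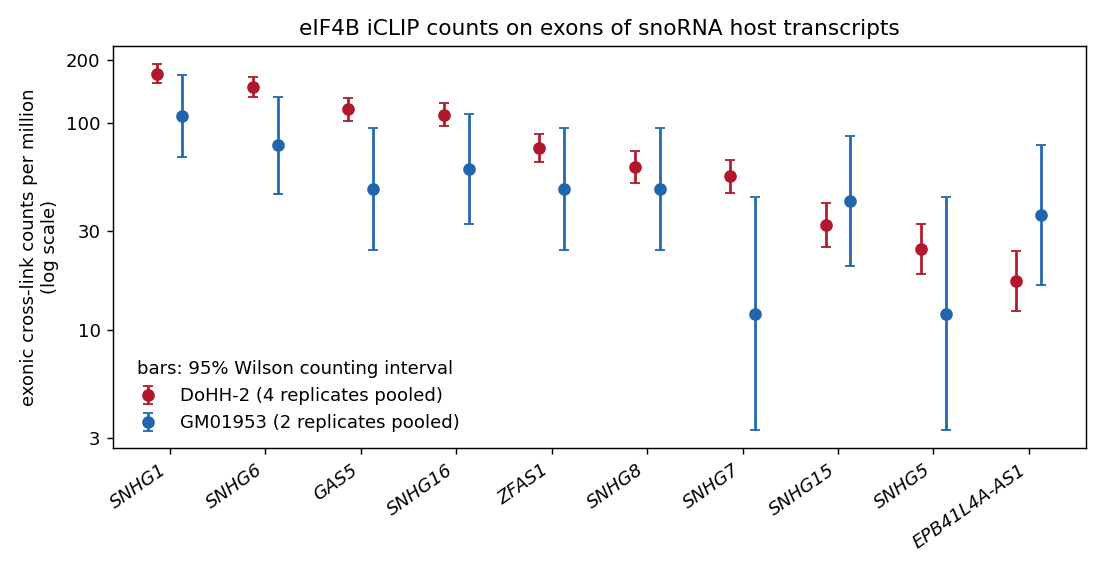
Exonic cross-link CPM (vertical axis, log scale) for each of the 10 hosts in DoHH-2 (red) and GM01953 (blue), with 95% Wilson counting intervals as bars. DoHH-2 points lie above GM01953 points for 8 hosts, and below them for SNHG15 and EPB41L4A-AS1.

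Of the 6 hosts with at least 60 exonic CPM in either line, GAS5 alone differed 2-fold or more, with a ratio of 2.42 (1.19–4.89). Among all 3658 genes at that level, 45.3% differed as much in either direction, 22.3% with the higher share in DoHH-2 and 23.0% with the higher share in GM01953. Among the 44 lncRNA genes at that level the share was 59.1%. Without the highest exonic position of each host 5 hosts were past 2-fold, and in canonical exons 0. The 60 CPM level was applied anew in both settings, so the hosts compared changed. In canonical exons GAS5, with 51 counts in DoHH-2 and 0 in GM01953, fell below that level and was not compared. Of the 6, GAS5, SNHG8, SNHG16 and ZFAS1 reached 60 CPM through DoHH-2 alone, so their direction at this level is tied to that choice. The remaining ratios were 1.90 for SNHG6 (1.09–3.32), 1.83 for SNHG16 (0.969–3.44), 1.60 for SNHG1 (0.996–2.57), 1.57 for ZFAS1 (0.773–3.20) and 1.27 for SNHG8 (0.624–2.61). Of the 4 hosts below this level, SNHG7 had the highest ratio, 4.61 (1.14–18.6) on 2 counts in GM01953, and EPB41L4A-AS1 the lowest, 0.480 (0.202–1.14).

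Other gene classes are given for scale. Exons of 72 other lncRNA genes that enclose snoRNAs had a DoHH-2 over GM01953 ratio of 1.21 (1.03–1.43), those of 250 protein-coding genes that do had 1.23 (1.20–1.27), and those of 88 cytosolic ribosomal protein genes had 1.01 (0.972–1.04). All lncRNA genes but the 10 hosts together had a ratio of 0.713 (0.683–0.745), and MALAT1, the nuclear lncRNA with the most counts among them, had 0.405 (0.354–0.462). The interval of the 10 hosts lay above those of the protein-coding hosts, the ribosomal protein genes and the other lncRNA genes and overlapped that of the other lncRNA hosts. Of the 2207 DoHH-2 and 150 GM01953 counts of the other lncRNA hosts, 640 and 21 belonged to ENSG00000264772, with a ratio of 2.51 (1.62–3.87). Its counts nearly equal those of the protein-coding gene SENP3-EIF4A1, 641 and 21. Whether both list the same positions was not tested, so the ratio of that class may rest partly on mRNA. These intervals cover counting error only.

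Hosts whose binding sites held more than 20 counts together were called bound. Sites on snoRNAs and in introns were included along with those in exons. In DoHH-2 7 of 10 hosts were bound, against 22.0% of the 21165 genes with a count and 3.72% of the 3472 lncRNA genes with a count. SNHG6 had 256 counts at sites, ZFAS1 172, SNHG16 128, GAS5 110, SNHG1 92, SNHG7 38 and SNHG8 31, whereas SNHG15 had 11, SNHG5 10 and EPB41L4A-AS1 4. Of the 172 in ZFAS1, 15 lay on SNORD12, 18 on SNORD12B and 13 on SNORD12C. In GM01953 0 of 10 hosts were bound, against 7.28% of all genes and 2.30% of lncRNA genes. The highest value was 14 counts at sites in SNHG1, of which 6 lay on SNORD26 and 4 on SNORD28. A host at the same share of the table has far fewer counts in GM01953, so the number of bound hosts cannot be compared between the lines at these depths.

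Where the counts lay within the genes was examined next. Of the DoHH-2 host counts 79.9% were exonic (78.1–81.6), made up of 948 counts in exons of the canonical transcript and 699 in exons that belong to other annotated transcripts only, many of them models that retain introns. Another 276 counts, 13.4% (11.99–14.9), lay on intronic snoRNAs, and 138, 6.70% (5.70–7.86), in sequence that is intron in every transcript. In GM01953 65.6% were exonic (56.9–73.4), 36 counts, 28.8% (21.6–37.3), lay on snoRNAs and 7 in introns.

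The makeup varied from host to host. Canonical exons held 87.8% of the DoHH-2 counts of SNHG6, 88.1% of those of SNHG8 and 89.2% of those of EPB41L4A-AS1, so few counts of these 3 lay elsewhere. At the other end, canonical exons held 15.3% of the counts of GAS5, 22.3% of those of SNHG16 and 32.3% of those of ZFAS1. Of the 334 GAS5 counts, 184 lay in exons of other transcripts only and 86 on its snoRNAs. Among hosts with sequence that is intron in every transcript, ZFAS1 alone had a large intronic count, 98 of 313, which reached 9 counts at a single position. SNHG1, SNHG8, SNHG15 and EPB41L4A-AS1 have no such sequence and could not have an intronic count. In SNHG1 177 of 431 counts lay in exons of other transcripts only.

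**Figure D2:**
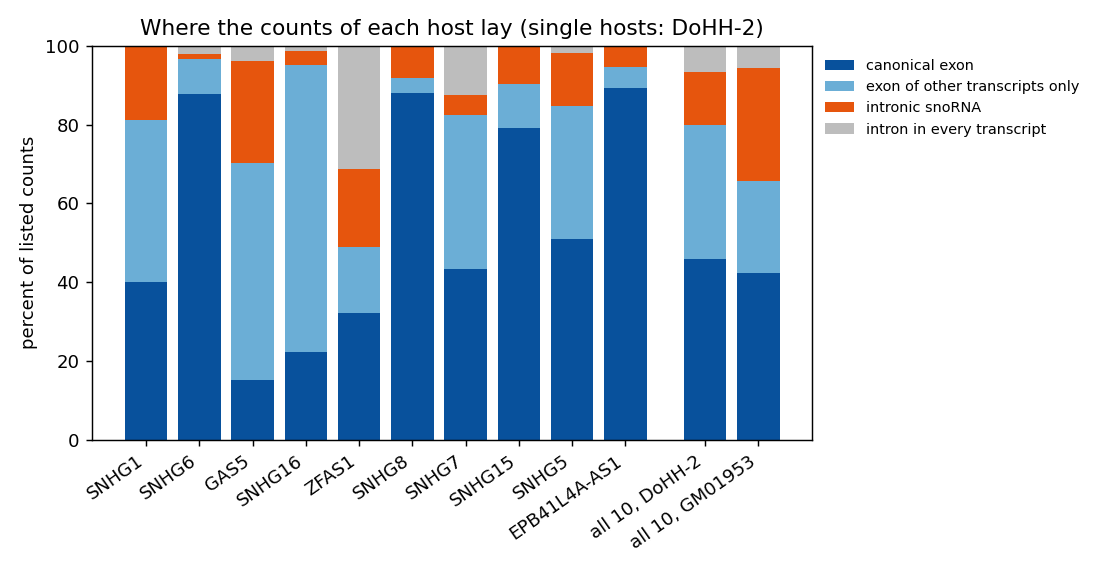
Percent of listed counts (vertical axis) in canonical exons, in exons of other transcripts only, on intronic snoRNAs and in introns, for each host in DoHH-2 and, on the right, for all 10 hosts in each line. SnoRNAs hold 13.4% of the DoHH-2 total and 28.8% of the GM01953 total.

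Per length, snoRNAs and exons were both far above sequence that is intron in every transcript, and their order depended on the annotated last exons. In DoHH-2 the 34 annotated snoRNAs carried 93.0 counts per kb, canonical exons 37.9 and exons of other transcripts only 23.2. Sequence that is intron in every transcript carried 0.940. Much sequence between canonical exons is not in that class. All sequence outside canonical exons and snoRNAs carried 4.73, and in SNHG1 it carried 85.5. Of the 146771 nt that are intron in every transcript, 107294 lay in SNHG16, which had 3 counts there. In GM01953 the snoRNAs carried 12.1 counts per kb and canonical exons 2.12. The snoRNA density exceeded that of canonical exons in 7 of 10 hosts in either line, and SNHG1, SNHG6 and SNHG16 were the exceptions in DoHH-2. The long last exons, several of which held few counts, lowered the exonic densities. With the last exon of each host left out, canonical exons carried 76.9 counts per kb in DoHH-2 and 4.22 in GM01953, and the snoRNA density exceeded theirs in 2 of 10 hosts in DoHH-2, SNHG5 and SNHG15, and in 6 of 10 in GM01953. ZFAS1 had the highest snoRNA density, 220 DoHH-2 counts per kb, against 22.3 in all its canonical exons and 305 without the last exon. GAS5 had 107 on snoRNAs, against 66.6 and 111, and SNHG1 109, against 149 and 133.

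**Figure D3:**
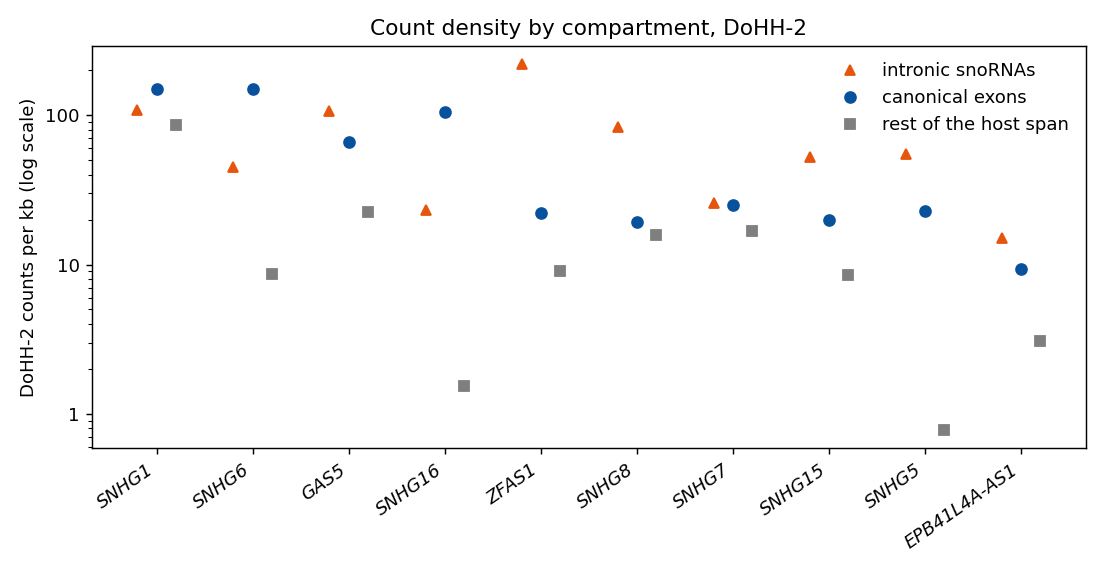
DoHH-2 counts per kb (vertical axis, log scale) on intronic snoRNAs (triangles), canonical exons (circles) and the rest of the gene (squares) for each host. The snoRNA point is the highest in 7 of 10 hosts, 2 of 10 once the last exon is left out, and the rest of the gene is the lowest in all 10.

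The snoRNAs exceeded the sequence beside them within the introns. The 28 box C/D snoRNAs held 248 DoHH-2 counts, 112 per kb, against 56.2 per kb in the 50 nt on each side of them with canonical exons and other snoRNAs left out, a ratio of 1.99 (1.63–2.44). The 6 box H/ACA snoRNAs held 28 counts, 37.2 per kb, against 9.26 per kb in their flanks. In GM01953 the box C/D snoRNAs held 30 counts against 3 in the flanks, and the box H/ACA snoRNAs 6 against 1. Intervals here and elsewhere treat each cDNA as independent, and several counts at a single position make the true error wider.

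In DoHH-2 33 of 34 snoRNAs had a count, SNORD74 of GAS5 being the exception, and in GM01953 16 of 34 did. SNORD26 and SNORD28 of SNHG1, which guide methylation of ribosomal RNA, had 25 and 23 counts in DoHH-2 and 6 and 4 in GM01953. The snoRNAs of ZFAS1 had 24 (SNORD12), 21 (SNORD12B) and 17 (SNORD12C) in DoHH-2, and of them SNORD12B alone had counts in GM01953, 3 in all. SNORD75, SNORD76, SNORD47 and SNORD79 of GAS5 had 21, 17, 11 and 11 in DoHH-2, and 1, 1, 0 and 2 in GM01953. SNORA24 of SNHG8 had 11 and 0, and the other snoRNAs had 8 or fewer in DoHH-2. In GM01953 all 4 counts of SNORA13 in EPB41L4A-AS1 lay at 1 position, as did all 6 of SNORD26 and all 4 of SNORD28. The counts of these 3 snoRNAs in GM01953 therefore rest on 3 positions.

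Cross-links were unevenly spread along the snoRNAs. With each snoRNA divided into 4 equal parts from its 5′ end, the second part of the box C/D snoRNAs held 113 of 248 DoHH-2 counts, 45.6%, and the last part 26. In GM01953 the 4 parts held 9, 9, 8 and 4 of 30 counts. The third part of the box H/ACA snoRNAs held 16 of 28 counts in DoHH-2 and 6 of 6 in GM01953. Single positions made up much of several snoRNAs. SNORD12 had 12 of its 24 counts at nt 28, SNORD12C 9 of 17 at nt 25, and SNORD12B 4 of 21 at nt 31, and in the windows shown above for SNORD12 and SNORD12C the cross-linked base is a U shortly before a run of C. SNORD28 had 11 of 23 at nt 27 in DoHH-2 and 4 of 4 at nt 48 in GM01953. SNORD26 had 12 of 25 at nt 64 in DoHH-2, just before the D box (CTGA) that begins at nt 67, and 6 of 6 at nt 16 in GM01953. The most frequent position of SNORD26 and SNORD28 thus differed between the lines. CTGA was found on the host strand in all 28 box C/D snoRNAs and in 3 of 6 box H/ACA snoRNAs, and TGATGA, the C box word searched, in 18 and 0.

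The snoRNAs of the hosts took a lower share of the table in DoHH-2, unlike the exons, and this difference rested on SNHG1. SnoRNAs of the 10 hosts had 136 CPM in DoHH-2 and 215 CPM in GM01953, which gave a ratio of 0.630 (0.445–0.892), whereas the exonic ratio was 1.65. Without SNHG1 195 DoHH-2 counts stood against 15 from GM01953 and the ratio was 1.07, and without any other single host the ratio lay between 0.488 and 0.704. Without the highest snoRNA position in each line it was 0.724 (0.496–1.06). For scale, snoRNAs annotated inside 250 protein-coding genes had a ratio of 0.670 (0.561–0.800) and those inside 72 other lncRNA genes 0.883 (0.552–1.41).

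In DoHH-2 the snoRNAs of protein-coding hosts were less dense than all their canonical exons together. Their snoRNAs, taken from GENCODE alone, had 26.6 counts per kb and their canonical exons 56.5, and the snoRNAs held 1.47% of all counts listed under those genes. Other lncRNA hosts had 11.7 counts per kb on snoRNAs and 12.7 in canonical exons. In GM01953 the values were 3.27 and 3.81 for protein-coding hosts, and 1.09 and 0.787 for other lncRNA hosts, where the order was thus the other way round.

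Along the spliced transcripts, the counts of several hosts were gathered in 1 or 2 exons. SNHG16 had 50 of its 52 canonical exonic counts in DoHH-2 in exon 1, and both of its counts in GM01953. ZFAS1 had 65 of 101 in exon 2, a density of 619 per kb, and 22 in exon 1, and 7 of 7 in exon 2 in GM01953. SNHG7 had 36 of 59 in exon 1. GAS5 had 24 of 51 in exon 7, 18 of them at the position shown above, and 0 canonical exonic counts in GM01953. SNHG1 differed from these in having 112 of 173 in its last exon, with 27 in exon 3, and 7 of 12 in the last exon in GM01953. That exon makes up 60.6% of its canonical length and held 64.7% of these DoHH-2 counts, so the share was near that of length.

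SNHG6 had 64 counts in exon 2, 571 per kb, and 182 in exon 3, the last. The annotated last exon is 1554 nt long, yet its DoHH-2 counts all fell between nt 8 and nt 145 and its 12 GM01953 counts between nt 30 and nt 146. SNHG8 showed the same, with 55 DoHH-2 counts between nt 3 and nt 161 of a last exon of 5693 nt and 2 GM01953 counts at nt 126 and nt 127. The last exon of ZFAS1, 4198 nt, had 1 count. Over the 10 hosts the last exon held 383 of 948 canonical exonic counts in DoHH-2, 40.4% (37.3–43.6), and 22 of 53 in GM01953, 41.5% (29.3–54.9), while making up 70.8% of the annotated length.

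**Figure D4:**
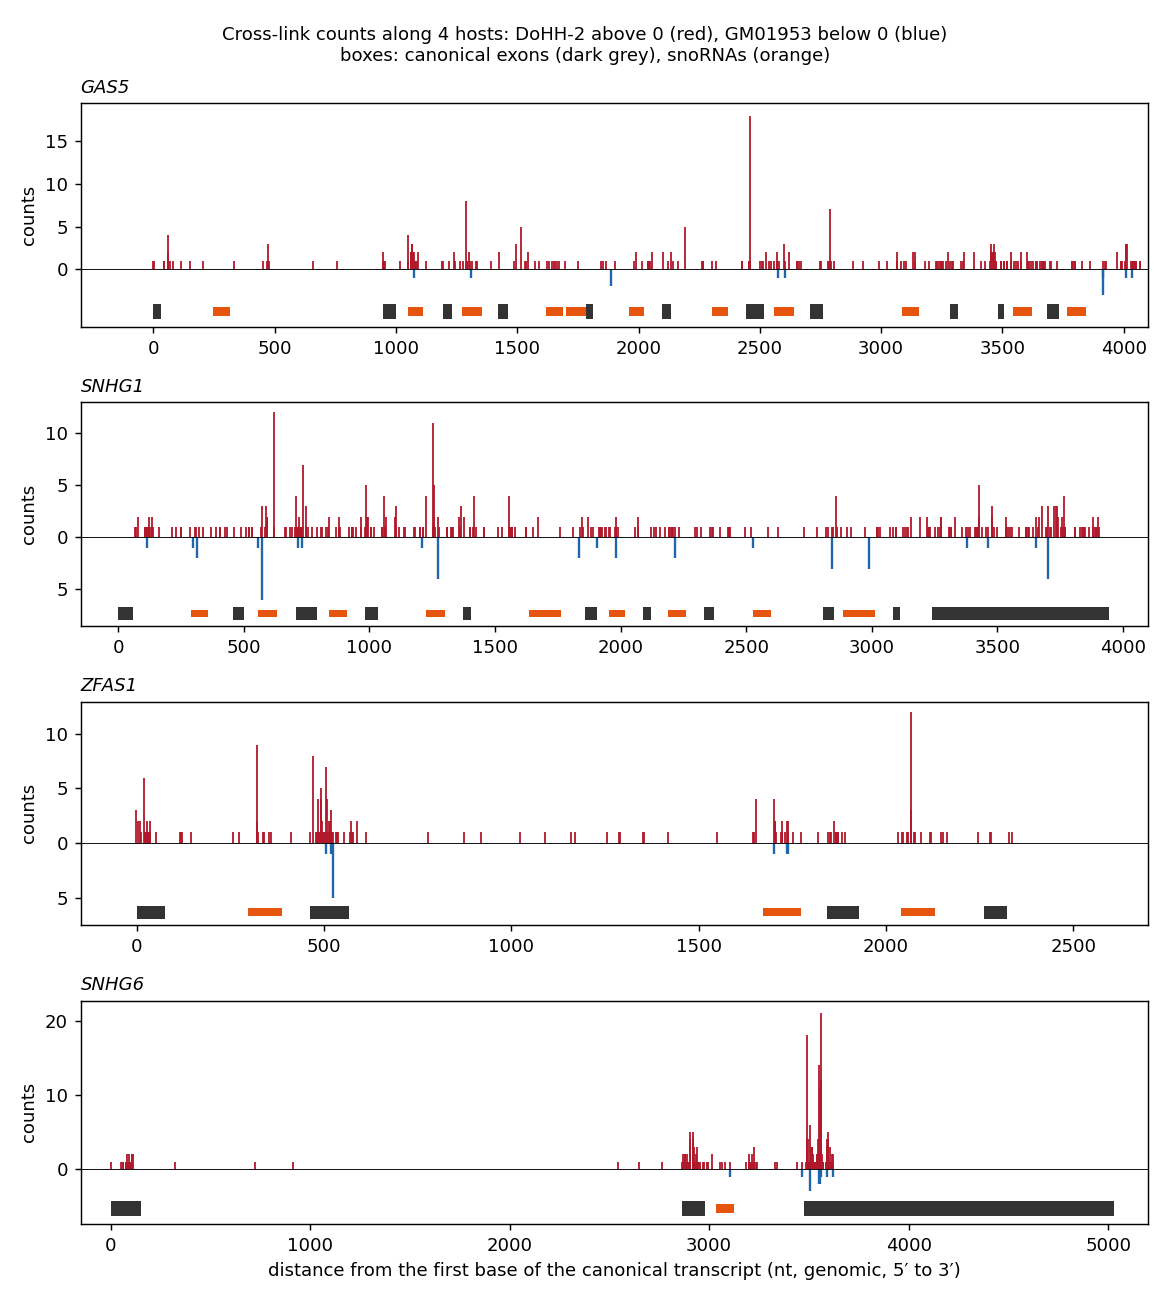
Counts (vertical axis) at each position of GAS5, SNHG1, ZFAS1 and SNHG6 against distance in nt from the first base of the canonical transcript, DoHH-2 above 0 in red and GM01953 below 0 in blue. Dark grey boxes are canonical exons and orange boxes snoRNAs, and the last exons of GAS5 and ZFAS1 lie beyond the plotted range. Counts of SNHG6 gather in exon 2 and the first 145 nt of exon 3, and those of ZFAS1 in exons 1 and 2 and on the snoRNAs.

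Starts of the transcripts were looked at because of the 5′ TOP tract. Within 50 nt of the canonical start lay 110 of 948 canonical exonic counts in DoHH-2, 11.6% (9.72–13.8). In GM01953 it was 4 of 53, 7.55% (2.97–17.9). These stretches were 1.99% of the annotated length, of which the last exons, several with few counts, made up 70.8%. For SNHG16 canonical exons held only 52 of 222 exonic counts in DoHH-2. Of the 110 counts in DoHH-2, 49 were in SNHG16, 28 in SNHG7 and 21 in ZFAS1, so those 3 hosts made up nearly all of them. From the RefSeq starts printed above, the first 50 nt of genomic sequence, not spliced, were also counted. They held 47 DoHH-2 counts in SNHG16, 28 in SNHG7, 25 in SNHG8, 21 in ZFAS1, 5 in SNHG5 and 4 in SNHG1. In GM01953 they held at most 2 in any host. The 4 in SNHG1 lay past the end of its canonical exon 1, which had 0 counts in DoHH-2. SNHG8 had 3 by the GENCODE start and 25 by the RefSeq start, which lies further downstream. The pyrimidine run was 8 nt in SNHG16, 7 in SNHG1, 5 in ZFAS1 and SNHG5, 4 in SNHG7 and 3 in SNHG8 in these 6 hosts. EPB41L4A-AS1, with a run of 2 nt at the RefSeq start, had 0 counts there in both lines. The RefSeq start of GAS5, chr1:173869045, with a run of 1 nt, lies upstream of the GENCODE span of the gene given above. Its 0 counts there are therefore not informative. From its canonical start GAS5 had 7 DoHH-2 counts in the first 50 nt.

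In DoHH-2 47.4% of exonic host counts (45.0–49.8) lay on a U, against 28.9% of the bases of the same exons, and 43.9% of all counts in the table. In GM01953 the exonic share on a U was 26.8% (18.4–37.3), against 40.1% over that whole table. On snoRNAs the U share was 46.4% (40.6–52.3) in DoHH-2 and 66.7% (50.3–79.8) in GM01953, against 30.1% of their bases. Host exons in GM01953 thus had fewer counts on a U than that table as a whole, and 42.7% on a G, but they rest on 54 positions. The word TTTT was present in the 21 nt around 26.2% of exonic positions in DoHH-2 (23.7–28.9) and 18.5% in GM01953 (10.4–30.8), against 13.6% of all such windows in the exons. GAGAGA or AGAGAG was present around 0.531% in DoHH-2 (0.244–1.15) and 1 of 54 positions in GM01953, against 0.819% of windows. Words were searched on the host strand.

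Some positions were shared between the lines. The low depth of GM01953 limits how many DoHH-2 positions could also be listed there, and the cause of unshared positions was not tested. Of the 78 GM01953 host positions 33, 42.3%, were also listed in DoHH-2, which is 2.32% of the 1421 DoHH-2 positions. Within 5 nt, 59 of the 78 (75.6%) had a DoHH-2 position, and 137 of the 1421 (9.64%) a GM01953 position. In SNHG1 the highest exonic position of GM01953, with 4 counts in the last exon, had 3 in DoHH-2. In ZFAS1 the highest exonic position of GM01953, with 5 counts at transcript nt 139, had 0 at the same base in DoHH-2 and 3 within 5 nt, and the highest of DoHH-2, with 8 counts at nt 85, had 0 in GM01953. SNHG6 had its highest position, 21 counts, at nt 351 in DoHH-2 and, with 3 counts, at nt 297 in GM01953. At SNHG16 the highest DoHH-2 position, 12 counts in an exon of other transcripts, lies in a 31-nt word that occurs 2 times in the genome, and so does the highest of SNHG5, with 4 counts.

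For the remaining hosts the highest exonic position in DoHH-2 held 7 counts in SNHG1, 6 in SNHG15, 5 in SNHG7, 5 in SNHG8 and 4 in EPB41L4A-AS1. In GM01953 it held 3 in GAS5, SNHG15 and EPB41L4A-AS1, 2 in SNHG5, SNHG8 and SNHG16, and 1 in SNHG7. Each of these GM01953 positions rests on 3 or fewer cDNAs.

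The mRNAs of proteins that act with the hosts were cross-linked too. The snoRNP core proteins assemble on snoRNAs, and the exons of all 8 of their mRNAs had counts in both lines, together 1453 CPM in DoHH-2 and 1077 CPM in GM01953, with a ratio of 1.35 (1.16–1.57). DKC1, the pseudouridine synthase, had 879 and 21 counts, a ratio of 3.44 (2.23–5.31), and FBL, the 2′-O-methyltransferase, 300 and 12, a ratio of 2.06 (1.15–3.66). SNU13, which binds the C/D motif, had 249 and 40, a ratio of 0.512 (0.367–0.715). The others were NOP56 at 1.22, NOP58 at 1.44, NHP2 at 0.937, NOP10 at 0.815 and GAR1 at 1.62. Of the 7 with at least 60 CPM, 2 were past 2-fold, beside the 45.3% of all genes at that level.

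Of the 7 NMD factors examined, which act on spliced host transcripts with early stop codons, all had exonic counts in both lines, and their summed ratio was 1.12 (0.893–1.41). UPF1, the central NMD helicase, had 192 and 16 counts, a ratio of 0.987 (0.593–1.64). SMG1, the kinase that phosphorylates UPF1, had 456 and 15, a ratio of 2.50 (1.49–4.18). The ratio was 1.42 for UPF2, 1.32 for UPF3B, 0.703 for SMG5, 0.356 for SMG6 and 0.137 for SMG9. Of the 4 with at least 60 CPM, 1 was past 2-fold, beside the same 45.3%.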

How the data were processed

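The authors removed PCR duplicates with dedupe from BBMap, demultiplexed with Je, mapped reads to GRCh38 with HiSat2 and pooled the replicates. The deposited tables hold cDNA counts per cross-link position and strand from iCount, and an FDR (q-value) per position, deposited by the authors. How the FDR was computed is not given in the sources used here. Versions are not given in the sources used here. Listed positions count from 0, as shown by the counts around exon starts, and were raised by 1 for printed coordinates. A cDNA that begins with the first base of an internal exon is listed 1 nt before it. It was counted as exonic, at the end of the exon before.

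Counts at unique positions were summed per host. SnoRNAs were taken from GENCODE release 44 and, for 14 of 34, from RefSeq alone. The RefSeq entries were assumed to lie on the host strand. Small RNA took precedence over canonical exon, other exon and intron. The only miscellaneous RNA entries in the hosts, conserved domains of ZFAS1, were kept as host sequence. Wilson and, for ratios, Katz log intervals (95%) were computed. A count of 3 was the floor for a value of 0. Genes with at least 60 exonic CPM in either line were compared at 2-fold. Unique sequence was decided from 31-nt words over 3099750718 reference bases. Promoter-table starts came from RefSeq on GRCh38. No columns were left without a group.

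The 10 members, their highest positions, snoRNAs with at least 10 counts, 2 protein lists and the top 3 genes of each class were the named genes, with the members and lists chosen while earlier results of these data were known. Other snoRNAs and exons, and the marker genes, were named after their values were seen. Some genes of the lists are not reported here and were left out of the list totals. Steps were tested on simulated data. Python 3.11.15 with numpy 2.4.6, pandas 2.3.3, scipy 1.17.1 and matplotlib 3.10.9 was used.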

Additional observations from a re-analysis of the deposited data

How the results depend on the processing

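No paired analysis was possible because replicates were pooled into 1 table per cell line, and no replicate could be left out for the same reason. Of 91 values under other settings, 54 stayed within their counting interval or, for numbers of hosts, within 1.5 times the main number. A reversal could be recorded only for the ratio of exonic share, which stayed higher in DoHH-2 under each setting. Hosts whose snoRNAs were denser than canonical exons numbered 2 in place of 7 in DoHH-2 without the last exons. In DoHH-2 the exonic CPM of the hosts was 351 with sites only (FDR below 0.05), 957 by number of positions, 766 without the highest position of each host, 754 in unique 31-nt words, 466 in canonical exons, 1102 over counts in genes other than histone genes and 860 with GENCODE small RNAs only. In GM01953 it was 215 with sites only, 688 by positions, 323 without the highest positions, 317 in canonical exons and 667 over counts in genes other than histone genes. The ratio was 2.37 without the highest positions. Hosts past 2-fold numbered 2 with sites only, by positions, in unique words and without histone genes, 5 without the highest positions and at 1.5-fold, and 0 in canonical exons. The 60 CPM level was applied anew under each setting, so the hosts compared were not the same throughout. The percent in exons in DoHH-2 was 83.8 with sites only, 46.0 in canonical exons, 76.7 with the ZFAS1 domains set apart and 84.8 with GENCODE small RNAs only. In GM01953 it was 55.7 without the highest positions and 42.4 in canonical exons. The percent on small RNAs in DoHH-2 was 16.6 with the ZFAS1 domains and 8.49 with GENCODE small RNAs only, which lack every snoRNA of GAS5. Without an FDR threshold 1 host, SNHG1, passed 20 counts in GM01953, with 39 listed counts of which 18 were exonic. The percent near the start was 17.9 with sites only, 7.64 on the longest transcript and 19.2 within 100 nt in DoHH-2, and 0 with sites only in GM01953. The percent in the last exon was 34.9 by positions and 54.4 on the longest transcript in DoHH-2, and 56.0 on the longest transcript in GM01953. Settings without the last exons, with the ZFAS1 domains, GENCODE only and widened snoRNA bounds were chosen after seeing the data. The cause of the other changes was not tested. Depth limits GM01953, where 7 hosts had 8 or fewer exonic counts.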
